A study of Homo sapiens with 68 samples.

Results

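The genes described here are 40 genes of the amino acid response, the program that the transcription factor ATF4 runs when cells lack amino acids or make too little protein, together with the cytosolic tRNA synthetases that belong to it. They were chosen by name, as ATF4 itself, its partners and the targets that carry the program. All 40 were on the array, among 11882 genes that had a probe set of their own. A probe set is a group of short DNA probes for the same transcript, and each gene was read from its brightest probe set by mean signal over all arrays.

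The cells were A673, a human Ewing sarcoma line that carries the EWS/FLI fusion. They were grown in DMEM with 10% fetal calf serum and sodium pyruvate and treated with a compound, or with DMSO vehicle alone, for 24 hours, 3 days or 5 days. ARA-C, a cytosine nucleoside analog that stops DNA synthesis, was given at 0.17 uM or 0.34 uM. Doxorubicin, an anthracycline that traps topoisomerase II on DNA, was given at 59.88 nM or 119.76 nM. Puromycin, which enters the growing peptide chain and ends it early, was given at 0.09 uM or 0.18 uM. The lower dose of each was its EC50 in these cells and the higher dose was 2 times the EC50. The study used Doxorubicin and Puromycin to ask whether the response to ARA-C was one that any cytotoxic agent would give. Whole-genome expression was read on 68 Affymetrix arrays with 3 arrays in most treated groups, 6 vehicle arrays at 24 hours, 5 at 3 days and 6 at 5 days.

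Treated arrays were compared only with vehicle arrays of the same time and the same part of the array plate. Plate rows A-F held vehicle replicates 1 to 3 and the arrays of ARA-C 0.17 uM, both doses of doxorubicin and puromycin 0.09 uM. They also held puromycin 0.18 uM at 24 hours and 3 days. Plate rows G-H held the ARA-C 0.34 uM arrays of all 3 times, vehicle replicates 4 to 6 and the single array of puromycin 0.18 uM at 5 days. The group of doxorubicin 119.76 nM at 5 days held 2 arrays, and so did the vehicle of rows A-F at 3 days. Replicate 3 of puromycin 0.09 uM at 5 days was left out, which left 2 arrays. The blood cell markers of the array left out summed to a signal of 126633, against 96.1 to 586 on the other arrays, and it correlated with the other arrays at a median of 0.603. Comparisons at the same time and plate part share their vehicle arrays, so they are given side by side and not counted as repeats of each other.

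When amino acids run short, uncharged tRNA activates the kinase GCN2, and other stresses activate sister kinases. Each of them phosphorylates the translation factor eIF2, which slows protein synthesis as a whole but lets more ATF4 protein be made from its mRNA. ATF4 pairs with C/EBP proteins and binds composite C/EBP-ATF elements near genes for amino acid synthesis, amino acid uptake, tRNA charging and feedback. Because this control acts on translation, the ATF4 mRNA on an array is not a measure of ATF4 protein. Puromycin acts directly on the ribosome, whereas ARA-C and doxorubicin act on DNA.

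The promoters of the 40 genes were searched on both strands for the core of the composite element, TGATGNAA, to show which of them carry its letters near the start site. RefSeq promoter windows of build GRCh38.p14, from 250 bases before to 50 bases after the start site, were given for 34 of the 40 genes. The core was in 10 of these 34 windows, 29.4%, and in 3.67% of 27305 promoter windows of all genes. It was in 6 of 11 windows of the tRNA synthetases and XPOT, in 2 of 5 of the transporters, in 1 of 9 of the synthesis enzymes and in 1 of 9 of the regulators. Among cytosolic tRNA synthetases and complex subunits outside the 40 genes it was in 0 of 9 windows. A match is a run of letters and not a measured binding site, and the lack of one covers only these windows. The 10 matches are shown 5′ to 3′ along the gene, with the core in capitals and up to 10 bases on each side. A core that reads TTNCATCA lies on the opposite strand.
ASNS, chr7:97872459-97872486, minus strand: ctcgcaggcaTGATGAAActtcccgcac
SLC3A2, chr11:62881726-62881748, plus strand: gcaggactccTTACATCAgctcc
SLC7A1, chr13:29595664-29595691, minus strand: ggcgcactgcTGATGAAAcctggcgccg
AARS1, chr16:70289676-70289703, minus strand: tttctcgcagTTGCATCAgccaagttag
MARS1, chr12:57488054-57488081, plus strand: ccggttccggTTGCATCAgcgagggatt
NARS1, chr18:57621805-57621832, minus strand: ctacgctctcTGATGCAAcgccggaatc
TARS1, chr5:33440957-33440984, plus strand: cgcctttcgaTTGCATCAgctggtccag
CARS1, chr11:3057408-3057435, minus strand: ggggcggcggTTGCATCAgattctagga
IARS1, chr9:92293693-92293720, minus strand: tttcagcgcgTTGCATCAcctccgtgcg
CHAC1, chr15:40953252-40953279, plus strand: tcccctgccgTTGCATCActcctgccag
The core of ASNS lay 68 to 61 bases before its start site. In MARS1, TARS1, CARS1 and IARS1 it lay within 13 bases of the start site and read TTGCATCA each time.

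Signals were the authors' MAS5 values, each array scaled to about the same mean, with signals under 10 set to 10 before taking log2. A gene was called where limma's adjusted p, by Benjamini-Hochberg over 22215 probe sets, was under 0.05. The median over all genes shifted in some groups under this scaling. The median change of all probe sets with a mean signal of 100 or more was -0.94 for puromycin 0.18 uM at 5 days, -0.78 for doxorubicin 119.76 nM at 5 days and -0.64 for ARA-C 0.17 uM at 5 days. In the other 15 comparisons against vehicle it lay between -0.32 and 0.13. Quantile normalization, which gives every array the same distribution of signals, brought it to between -0.12 and 0.02, and counts under both scalings are given below. The log2 ratio of the 3′ to the 5′ probe set of ACTB, a measure of RNA quality that rises as transcripts shorten, was 4.10 to 5.00 in doxorubicin 119.76 nM, 2.88 to 5.07 in ARA-C 0.17 uM and 4.13 in puromycin 0.18 uM at 5 days. It was 1.92 to 2.08 in the vehicle of rows A-F and 0.53 to 0.66 in that of rows G-H at 5 days. Of the Ewing sarcoma markers 7 of 9 were on the array, and they summed to a signal of 22423 to 59503 on every array used. In doxorubicin 119.76 nM at 5 days that sum was 22423 to 25079, against 44112 to 45280.4 in the vehicle of rows A-F. The 5 epithelial markers, all on the array, summed to 30269 to 31403 in doxorubicin 59.88 nM, 25669 to 28969.7 in 119.76 nM and 16936 to 17647 in ARA-C 0.17 uM at 5 days, against 11206 to 11683 in the same vehicle. That sum was almost all keratin, with mean signals over all arrays of 13599.8 for KRT18 and 3091 for KRT8. KRT19, EPCAM and CDH1 were dim, at 13.8, 19.8 and 79.4. The part of these shifts in the results was not tested.

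The vehicle cells themselves changed with time, so each treated group was compared with a vehicle level that moved. In plate rows A-F 23 of the 40 genes were higher and 3 lower in vehicle cells at 5 days than at 24 hours, beside 4.28% and 9.39% of all probe sets. In plate rows G-H 27 were higher and 0 lower, beside 19.9% and 9.24%. The median change of the 40 genes was 0.52 in rows A-F and 0.58 in rows G-H, and that of all probe sets with a mean signal of 100 or more was -0.16 and 0.16. After quantile normalization all 23 and all 27 genes stayed higher. In bulk RNA, fewer cells of a type and less RNA per cell cannot be told apart.

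DDIT4, an inhibitor of the growth kinase mTORC1, gave the largest rise with time in rows A-F. Its signal was 2445, 3097 and 2242 in vehicle cells of rows A-F at 5 days, against 233, 280.4 and 303 at 24 hours, a log2 change of 3.25 ± 0.18 (SE, adjusted p = 1.7e-19). PCK2, the mitochondrial phosphoenolpyruvate carboxykinase, was at 1479, 2235 and 1335 at 5 days, against 207, 259 and 224 at 24 hours. Neither gene's arrays overlapped between the times. ASNS, which makes asparagine, was 1.72 ± 0.18 higher in rows A-F and 1.73 ± 0.18 higher in rows G-H on the log2 scale (SE, adjusted p = 6.1e-10 and 5.3e-11). The transporters SLC7A5, SLC3A2 and SLC1A5 were the 3 genes that fell with time in rows A-F, with log2 changes of -0.57, -0.95 and -0.71, and none of these was called in rows G-H.

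The vehicle cells of the 2 plate parts also differed from each other at 5 days. Rows G-H against rows A-F gave 22 genes higher and 0 lower, beside 15.5% and 6.62% of all probe sets, with a median of 0.55. At 24 hours 6 were higher and 0 lower, beside 0.117% and 0.329%. At 3 days the counts were 0 and 0, beside 0.122% and 0.671%. ASS1, the arginine synthesis enzyme argininosuccinate synthase, was 2.64 ± 0.31 higher in rows G-H at 5 days, and NUPR1, a small nuclear stress protein, 3.36 ± 0.43 higher (log2, SE, adjusted p = 5e-09 and 3.6e-08). NUPR1 was at 131, 127 and 132 in rows G-H, against 20.3, 1.8 and 1.9 in rows A-F, where 2 arrays were set to 10, so the size of its difference rests on that floor. Plate part and whatever else differed between these wells cannot be told apart.

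**Figure D1:**
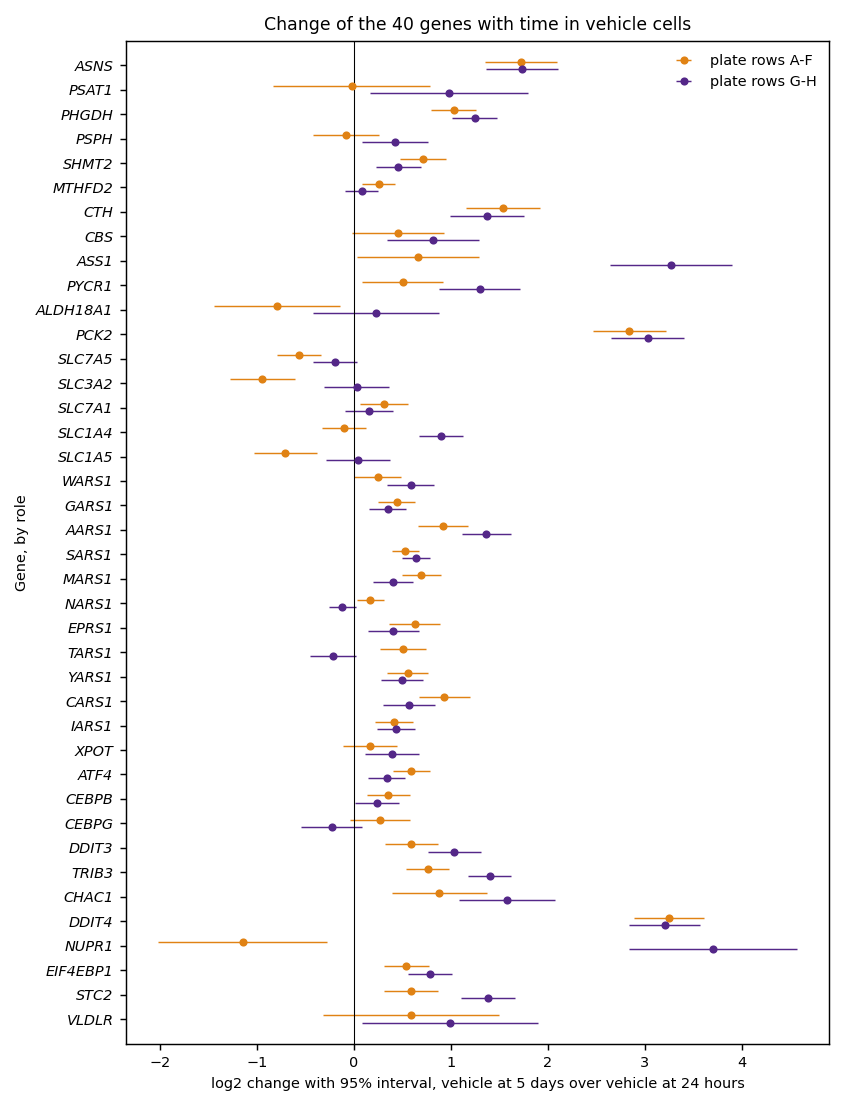
Log2 change of each of the 40 genes in vehicle cells at 5 days over vehicle cells at 24 hours, with the 95% interval of the limma fit, for plate rows A-F (orange, 3 arrays at each time) and rows G-H (purple, 3 arrays at each time). DDIT4 and PCK2 lie farthest to the right in rows A-F, at 3.25 and 2.84, while ASS1 and NUPR1 separate the plate parts.

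At 24 hours of ARA-C more of the 40 genes rose than fell. With ARA-C 0.17 uM 13 of the 40 genes were higher and 4 lower, beside 4.58% and 12% of all probe sets, with 17 higher and 3 lower after quantile normalization. The largest rises were those of DDIT4 (1.98), PCK2 (1.56), CTH (1.21) and STC2 (1.04), as log2 changes, and the largest falls those of NUPR1 (-1.49), ALDH18A1 (-1.26), PSAT1 (-1.13) and AARS1 (-0.37), the fall of NUPR1 being to signals under the floor. With ARA-C 0.34 uM 16 of the 40 genes were higher and 0 lower, beside 7.41% and 1.37% of all probe sets, with 18 higher and 0 lower after quantile normalization. The largest rises were those of NUPR1 (2.75), DDIT4 (2.16), DDIT3 (1.60) and STC2 (1.41). The median change of the 40 genes was 0.07 and 0.31 at the lower and higher dose, beside -0.19 and 0.13 for all probe sets with a mean signal of 100 or more.

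At 3 days fewer genes were called with ARA-C than at 24 hours under the deposited scaling. At 0.34 uM this did not hold after quantile normalization. The 0.17 uM comparison rested on 2 vehicle arrays. More of its genes were higher against all vehicle arrays of that time or with plate part as a block (counts below). At 0.17 uM 5 of the 40 genes were higher and 1 lower, beside 5.80% and 4.50% of all probe sets, with 12 higher and 1 lower after quantile normalization. NUPR1, PCK2, STC2, DDIT3 and SLC1A4 were the genes that rose, by 3.76, 0.69, 0.65, 0.49 and 0.47, and XPOT fell (-0.47). At 0.34 uM 12 of the 40 genes were higher and 1 lower, beside 11.2% and 7.77% of all probe sets, with 16 higher and 2 lower after quantile normalization. The rises were led by NUPR1 (3.00), STC2 (1.34), DDIT3 (1.29) and CTH (1.01), and ALDH18A1 fell (-1.61). At 5 days of 0.17 uM the counts depended on the scaling, since 3 of the 40 genes were higher and 23 lower, beside 8.36% and 33.3% of all probe sets, with 15 higher and 11 lower after quantile normalization, and 11 genes were lower under both scalings. NUPR1 (4.10), STC2 (0.56) and CARS1 (0.52) rose, and ALDH18A1 (-2.50), PSAT1 (-2.46), DDIT4 (-2.32) and CBS (-2.12) fell most. At 0.34 uM 4 of the 40 genes were higher and 23 lower, beside 11.8% and 18.8% of all probe sets, with 6 higher and 22 lower after quantile normalization, with 22 lower under both. Here NUPR1 (1.53), DDIT3 (0.52), TARS1 (0.37) and WARS1 (0.34) rose and ASS1 (-4.06), PCK2 (-2.33), DDIT4 (-2.11) and PYCR1 (-1.70) fell most. The ACTB 3′ to 5′ ratio was higher than in vehicle cells in both 5-day groups. At 0.17 uM it is given above, and at 0.34 uM it was 1.25 to 1.99, against 0.53 to 0.66 in vehicle cells. It was also 1.53 to 1.84 at 3 days of 0.34 uM, against 0.29 to 0.63, and 1.39 to 1.99 at 24 hours of 0.17 uM, against 0.51 to 0.83. Its part in these results was not tested.

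Doxorubicin gave both rises and falls at 24 hours at the lower dose and a lower level of many of the 40 genes later. At 59.88 nM and 24 hours 7 of the 40 genes were higher and 2 lower, beside 1.66% and 3.83% of all probe sets, with 9 higher and 2 lower after quantile normalization. DDIT3 (1.25), DDIT4 (1.16), CTH (0.90) and PCK2 (0.83) rose most, and SLC3A2 (-0.56) and SLC7A5 (-0.45) fell. At 3 days 3 of the 40 genes were higher and 17 lower, beside 6.27% and 9.75% of all probe sets, with 3 higher and 18 lower after quantile normalization. DDIT3 (1.35), SLC1A4 (0.51) and CEBPB (0.38) were the genes that rose, while CBS (-1.29), PYCR1 (-1.28), CHAC1 (-1.26) and PCK2 (-1.24) fell most. At 5 days 4 of the 40 genes were higher and 22 lower, beside 10.1% and 22.6% of all probe sets, with 6 higher and 21 lower after quantile normalization. NUPR1 (1.66), DDIT3 (1.43), SLC3A2 (0.63) and CARS1 (0.34) rose and CBS (-2.82), PCK2 (-2.79), ASS1 (-1.97) and PSAT1 (-1.70) fell most. The NUPR1 signal was 42.9, 43.5 and 34.3, against 20.3, 1.8 and 1.9 in vehicle cells, so the size of its change rests on the floor of 10. The 5-day vehicle arrays of rows G-H were higher, at 131, 127 and 132. SLC3A2, at 1687, 1751 and 1869, was also below those arrays (1945, 2000 and 2079).

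With 119.76 nM of doxorubicin at 24 hours 9 of the 40 genes were higher and 10 lower, beside 5.05% and 9.98% of all probe sets, with 11 higher and 10 lower after quantile normalization. DDIT3 (1.90), PCK2 (1.33), DDIT4 (1.11) and CTH (1.07) rose most and PSAT1 (-1.22), ALDH18A1 (-1.10), CBS (-1.08) and PYCR1 (-0.80) fell most. At 3 days 1 of the 40 genes was higher and 21 lower, beside 6.91% and 8.67% of all probe sets, with 3 higher and 24 lower after quantile normalization. DDIT3 was the gene that rose, and CHAC1 (-2.46), PCK2 (-2.20), ASNS (-1.98) and PYCR1 (-1.69) fell most. The median of the 40 genes was -0.72 at that time, beside -0.10 for all probe sets with a mean signal of 100 or more. At 5 days 2 of the 40 genes were higher and 32 lower, beside 13.7% and 34.6% of all probe sets, with 6 higher and 23 lower after quantile normalization, and 23 were lower under both scalings. DDIT3 and CEBPB (0.32) rose, and PSAT1 (-4.46), ASS1 (-4.35), CBS (-3.90) and ALDH18A1 (-3.82) fell most. This 5-day group held 2 arrays with the ACTB ratios given above, and the part of RNA quality in these falls was not tested.

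Puromycin 0.09 uM gave more called genes at 24 hours than later, against the vehicle arrays of its plate part and under both scalings. The comparisons differ in their number of arrays, and the 3-day vehicle and the 5-day treated group held 2 each. With plate part as a block that order did not hold, and against all vehicle arrays fewer genes were higher at 24 hours (counts below). At 0.09 uM and 24 hours 8 of the 40 genes were higher and 7 lower, beside 1.82% and 11.6% of all probe sets, with 13 higher and 2 lower after quantile normalization. CTH (0.74), CARS1 (0.57), TRIB3 (0.51) and CEBPG (0.45) rose most and ALDH18A1 (-1.05), ASS1 (-0.98), CBS (-0.83) and PYCR1 (-0.70) fell most. At 3 days 1 of the 40 genes was higher and 1 lower, beside 0.365% and 2.93% of all probe sets, with 2 higher and 2 lower after quantile normalization. The gene that rose was DDIT3 (0.64) and the gene that fell was DDIT4 (-0.70). At 5 days, on 2 arrays, 5 of the 40 genes were higher and 3 lower, beside 1.60% and 3.30% of all probe sets, with 4 higher and 2 lower after quantile normalization. DDIT3 (0.81), CEBPG (0.74), SLC3A2 (0.73) and TRIB3 (0.64) rose most, and the genes that fell were DDIT4 (-2.07), PCK2 (-1.14) and CHAC1 (-0.89). Of the genes that rose, DDIT3 and SLC3A2 overlapped the 5-day vehicle arrays of rows G-H, and TRIB3 was below them.

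With 0.18 uM of puromycin at 24 hours 14 of the 40 genes were higher and 1 lower, beside 2.16% and 5.69% of all probe sets, with 20 higher and 1 lower after quantile normalization. DDIT3 (1.19), DDIT4 (1.12), CTH (1.10) and STC2 (1.03) rose most, and NUPR1 was called lower (-1.49), though all 3 treated signals (5.0, 1.4 and 6.3) were under the floor of 10, so the size of that change rests on it. At 3 days 6 of the 40 genes were higher and 9 lower, beside 2.56% and 6.84% of all probe sets, with 7 higher and 9 lower after quantile normalization. DDIT3 (1.44), SLC3A2 (0.64), STC2 (0.63) and SLC1A4 (0.59) rose most and ASS1 (-1.91), PCK2 (-1.61), CHAC1 (-1.44) and CBS (-1.31) fell most. At 5 days a single array, whose spread was assumed to be that of the other groups, gave 0 genes higher and 30 lower, beside 13.1% and 36% of all probe sets. The counts were 4 higher and 21 lower after quantile normalization, and 21 were lower under both scalings. ASS1 (-8.23), PCK2 (-5.14), DDIT4 (-4.81) and PSAT1 (-4.70) fell most. This array had the ACTB ratio given above and fewer signals under 10 than most arrays, 5.80% of them, and the part of these in its result was not tested. Each count over the 18 comparisons below includes this single array.

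**Figure D2:**
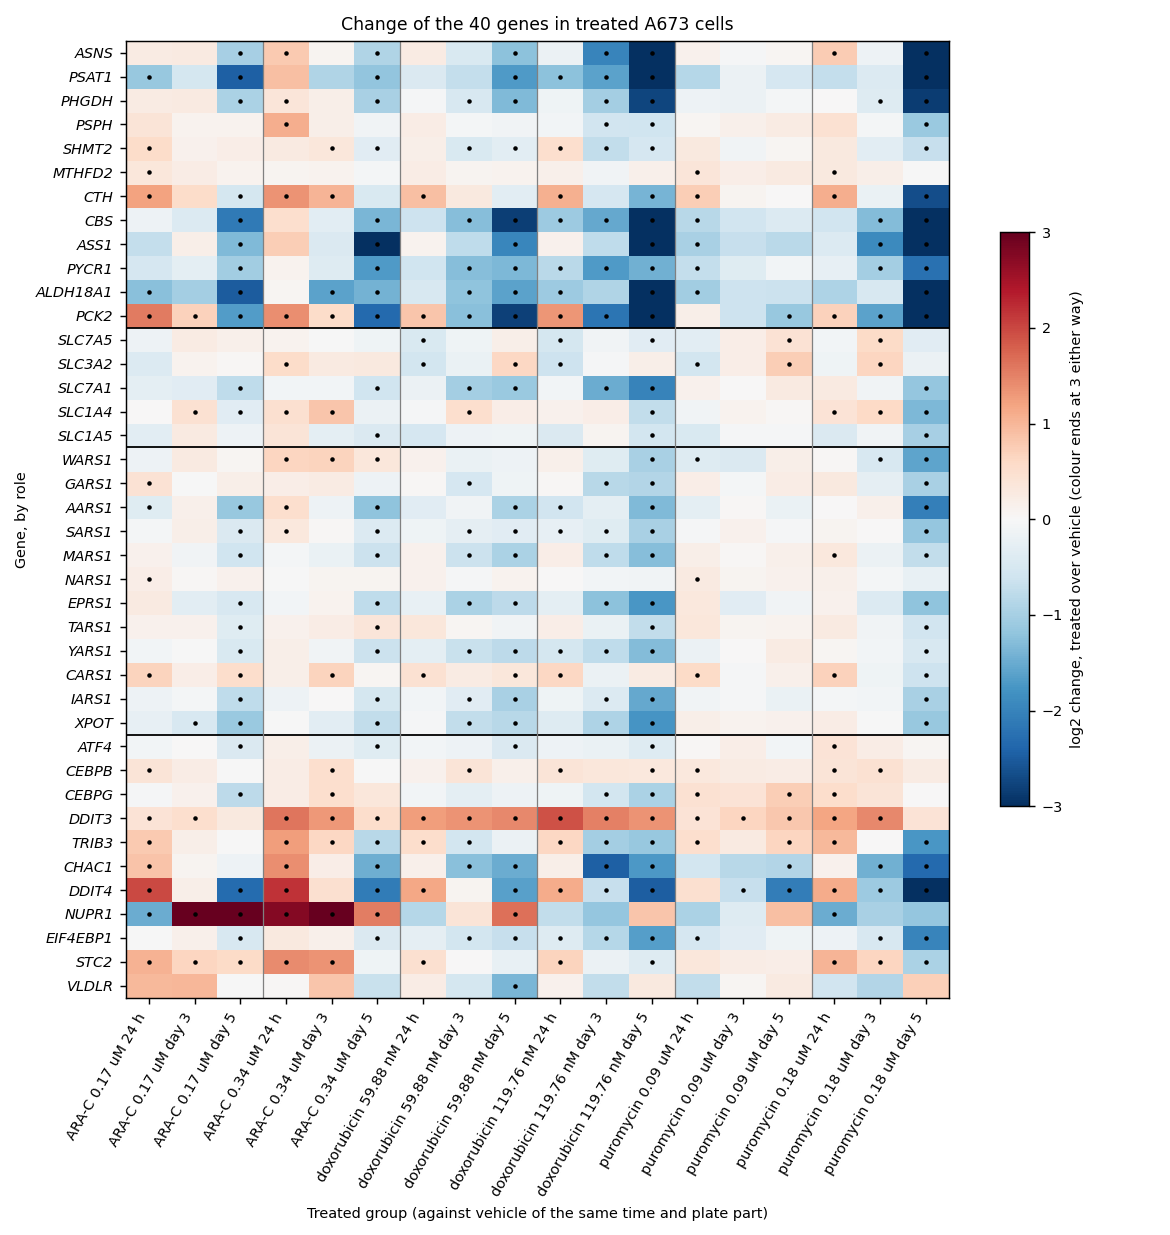
Log2 change, treated over vehicle of the same time and plate part, for each of the 40 genes (down the page, in 4 blocks: synthesis enzymes, transporters, tRNA synthetases with XPOT, regulators) in each of the 18 treated groups (across). Red is higher and blue lower, with colour ending at 3 either way, and a dot marks an adjusted p under 0.05 by limma; DDIT3 carries 16 dots, all on red.

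**Figure D3:**
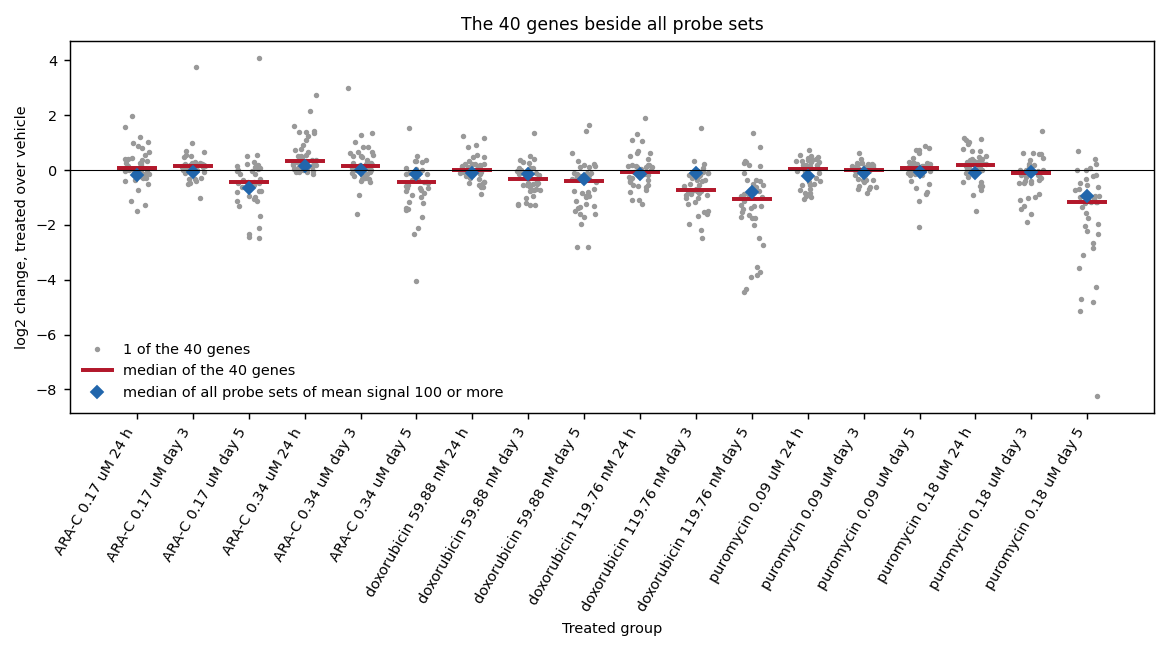
Log2 change, treated over vehicle, of each of the 40 genes (grey points) in the 18 treated groups, with their median (red line) and the median of all probe sets of mean signal 100 or more (blue diamond). The red line lies above the diamond in all ARA-C groups at 24 hours and 3 days and below it in doxorubicin 119.76 nM at 3 days (-0.72 and -0.10).

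Among the regulators, the ATF4 mRNA itself moved little. It was called in 5 of 18 comparisons, higher in 1 and lower in 4, and its log2 changes lay between -0.44 and 0.40. The rise was with puromycin 0.18 uM at 24 hours, where the signal was 13213, 12879 and 12427, against 9869.7, 9539 and 9757 in vehicle cells (0.40 ± 0.09 SE, adjusted p = 0.0038). The treated arrays were all above these vehicle arrays of rows A-F. The 24-hour vehicle arrays of rows G-H were at 12777.5, 11735 and 12335, and the treated arrays overlapped them. The falls were at 5 days. With ARA-C 0.17 uM the signal was 11293, 9068 and 12368, against 14051, 15250.5 and 14654 in vehicle cells (-0.44 ± 0.09 SE, adjusted p = 0.00012). With ARA-C 0.34 uM it was 11964, 11975 and 12257, against 15494, 14839.5 and 16196 (-0.36 ± 0.09 SE, adjusted p = 0.002). Doxorubicin 59.88 nM gave 10315, 11708 and 10765 and 119.76 nM gave 12091 and 10391 at 5 days, both below the same vehicle arrays of rows A-F (-0.42 ± 0.09 SE, adjusted p = 0.00029 and -0.39 ± 0.11 SE, adjusted p = 0.0019). The call at the higher dose was lost without treated replicate 3, at -0.28 and adjusted p = 0.087.

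DDIT3, the ATF4 target also called CHOP that promotes cell death under long stress, rose in 16 of 18 comparisons and fell in 0. It was the gene most often higher of the 40. With doxorubicin 119.76 nM at 24 hours its signal was 2114, 1808 and 1681, against 425, 529 and 547 in vehicle cells (1.90 ± 0.14 SE, adjusted p = 1.9e-15). All treated arrays lay above all vehicle arrays. At 3 days it was 2749, 2826 and 2429 with doxorubicin 59.88 nM, 3133, 3426 and 2500.3 with 119.76 nM and 2822, 2697 and 2984 with puromycin 0.18 uM, against 985 and 1108 in vehicle cells. These rises were 1.35 ± 0.15, 1.52 ± 0.15 and 1.44 ± 0.15 (log2, SE, adjusted p = 8.5e-10, 3.2e-11 and 3.1e-10), again without overlap. ARA-C 0.34 uM gave 2155, 1790.5 and 1953 at 24 hours, against 630.4, 602 and 717 in its vehicle cells (1.60 ± 0.14 SE, adjusted p = 1e-12). ARA-C 0.17 uM gave a smaller rise, 633, 686 and 659.5 against 425, 529 and 547 (0.41 ± 0.14 SE, adjusted p = 0.03). The 2 comparisons that were not called were ARA-C 0.17 uM and puromycin 0.18 uM at 5 days, with 0.29 ± 0.14 (SE, adjusted p = 0.08) and 0.42 ± 0.19 (SE, adjusted p = 0.067), which were 1.05 and 1.45 and called after quantile normalization. Of the 16 rises 5 lost the call when 1 array was left out. These were ARA-C 0.17 uM at 24 hours (without vehicle replicate 1 or treated replicate 2 or 3, at 0.29 to 0.41 and an adjusted p of up to 0.23) and 3 days (without vehicle replicate 1 or 2 or treated replicate 1 or 2, at 0.41 to 0.58 and an adjusted p of up to 0.28) and puromycin 0.09 uM at 24 hours (without vehicle replicate 1 or treated replicate 1 or 2 or 3, at 0.31 to 0.45 and an adjusted p of up to 0.23), 3 days (without vehicle replicate 1 or treated replicate 1, at 0.43 to 0.55 and an adjusted p of up to 0.27) and 5 days (without treated replicate 2, at 0.59 and adjusted p = 0.099).

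TRIB3, a pseudokinase that ATF4 induces and that holds ATF4 back, was higher in 8 comparisons and lower in 5. At 24 hours it was called higher in all 6 treated groups. Doxorubicin gave 2514.5, 2241 and 2151 with 59.88 nM and 2649, 2470 and 2174 with 119.76 nM. Puromycin 0.09 uM gave 2479.5, 2159 and 2164. These groups were compared with rows A-F, and they overlapped the vehicle arrays of rows G-H, at 2442, 2193 and 2249. ARA-C 0.34 uM gave 5302, 5852 and 5228, against 2442, 2193 and 2249 in vehicle cells (1.25 ± 0.11 SE, adjusted p = 2.9e-12). ARA-C 0.17 uM gave 2626, 3005 and 2648 and puromycin 0.18 uM 3355, 3013 and 2923, against 1442, 1906 and 1458 (0.79 ± 0.11 SE, adjusted p = 1.1e-06 and 0.96 ± 0.11 SE, adjusted p = 3.1e-08). The arrays of these groups did not overlap those of vehicle cells. At 3 days of doxorubicin 119.76 nM the signal was 2174, 1933 and 1801, against 3632 and 4292 (-1.01 ± 0.12 SE, adjusted p = 7.8e-09), lower on every array. At 5 days it was 3989.7 and 4373 with puromycin 0.09 uM and 1094 and 1382 with doxorubicin 119.76 nM, against 2500.3, 3064 and 2539 in vehicle cells. That rise was 0.64 ± 0.12 (SE, adjusted p = 0.00049) and that fall -1.13 ± 0.12 (SE, adjusted p = 3.7e-11), but the fall was -0.29 and not called after quantile normalization. The rise is over vehicle cells of rows A-F only, since both puromycin arrays were below the 5-day vehicle arrays of rows G-H (6021, 6227 and 5885). With ARA-C 0.34 uM at 5 days TRIB3 was at 3599, 3506 and 3123, against 6021, 6227 and 5885 (-0.83 ± 0.11 SE, adjusted p = 1.9e-08).

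CHAC1, which breaks down glutathione, rose with ARA-C at 24 hours and was lower in 8 later comparisons. Its signal was 1054, 1019.7 and 786 with ARA-C 0.34 uM, against 338, 362 and 387 in vehicle cells (1.39 ± 0.25 SE, adjusted p = 7.1e-05), and 533, 393 and 399 with 0.17 uM, against 247, 258 and 217 (0.86 ± 0.25 SE, adjusted p = 0.01). The other 4 groups at 24 hours were not called, with log2 changes of -0.55 to 0.18. The rise at 0.17 uM was lost without vehicle replicate 3 or treated replicate 1, at 0.72 to 0.79 and an adjusted p of up to 0.061. At 3 days of doxorubicin 119.76 nM it was at 116, 139 and 71.8, against 639.9 and 524 (-2.46 ± 0.27 SE, adjusted p = 6.8e-10). Puromycin 0.18 uM at 3 days gave 308, 243 and 130.3 against the same vehicle arrays (-1.44 ± 0.27 SE, adjusted p = 0.00013). No treated array reached the vehicle arrays in either group. At 5 days of ARA-C 0.34 uM it was at 473, 429 and 292, against 1172, 964 and 1106 (-1.47 ± 0.25 SE, adjusted p = 3.1e-06), whereas at 0.17 uM it was at 368, 459.7 and 379.5, against 334, 657 and 394 (-0.14 ± 0.25 SE, adjusted p = 0.71).

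The change of DDIT4 turned between 24 hours and 5 days. At 24 hours its signal was 1287, 1107 and 849 with ARA-C 0.17 uM and 471, 789 and 601 with doxorubicin 59.88 nM, against 233, 280.4 and 303 in vehicle cells (1.98 ± 0.18 SE, adjusted p = 1.6e-11 and 1.16 ± 0.18 SE, adjusted p = 1.5e-05). At 5 days it was 630.4, 368 and 589 and 951, 815 and 755 in the same 2 groups, against 2445, 3097 and 2242 (-2.32 ± 0.18 SE, adjusted p = 3.8e-15 and -1.62 ± 0.18 SE, adjusted p = 2.1e-10). The arrays did not overlap these vehicle arrays of rows A-F at either time. At 24 hours the DDIT4 signal with doxorubicin 59.88 nM did overlap that of the vehicle arrays of rows G-H (607, 452 and 452). At the dose of 0.34 uM ARA-C it was 2492, 2020.2 and 2209 at 24 hours, against 607, 452 and 452 (2.16 ± 0.18 SE, adjusted p = 1e-12), and at 1158, 1004 and 1045 at 5 days, against 5177, 4120.0 and 4563 (-2.11 ± 0.18 SE, adjusted p = 5.6e-14). Puromycin 0.09 uM gave 749.8, 779 and 731 at 3 days and 650.0 and 574 at 5 days, against 1184 and 1262 and 2445, 3097 and 2242 in vehicle cells, with changes of -0.70 ± 0.20 (SE, adjusted p = 0.039) and -2.07 ± 0.20 (SE, adjusted p = 2.7e-10). The treated arrays were below all vehicle arrays at both times, but the 3-day call was lost without vehicle replicate 1 or 2 or treated replicate 1 or 2 or 3, at -0.74 to -0.65 and an adjusted p of up to 0.26.

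The change of these effects between 24 hours and 5 days was tested directly at the EC50 as the 5-day change minus the 24-hour change. This difference also holds the change of the vehicle cells, so a negative value need not be a fall in treated cells. DDIT4 in vehicle cells of rows A-F went from 233, 280.4 and 303 to 2445, 3097 and 2242. With puromycin 0.09 uM DDIT4 rose too, from 388, 408.5 and 333 to 650 and 574, whereas with ARA-C 0.17 uM it fell, from 1287, 1107 and 849 to 630.4, 368 and 589. For DDIT4 the difference was -4.30 ± 0.26 (SE, adjusted p = 1.6e-18) with ARA-C, -2.78 ± 0.26 (SE, adjusted p = 5.6e-12) with doxorubicin and -2.54 ± 0.27 (SE, adjusted p = 2.3e-08) with puromycin. ASNS gave -1.25 ± 0.26 (SE, adjusted p = 0.00032) with ARA-C, -1.47 ± 0.26 (SE, adjusted p = 3.2e-05) with doxorubicin and -0.06 ± 0.28 (SE, adjusted p = 1) with puromycin. TRIB3 gave -0.81 ± 0.16 (SE, adjusted p = 9.7e-05) with ARA-C, -0.71 ± 0.16 (SE, adjusted p = 0.00061) with doxorubicin and 0.12 ± 0.17 (SE, adjusted p = 0.89) with puromycin. CHAC1 gave -1.01 ± 0.35 (SE, adjusted p = 0.031) with ARA-C, -1.65 ± 0.35 (SE, adjusted p = 0.00038) with doxorubicin and -0.34 ± 0.37 (SE, adjusted p = 0.84) with puromycin. ATF4 passed with ARA-C, -0.36 ± 0.13 (SE, adjusted p = 0.048), but not with doxorubicin, -0.33 ± 0.13 (SE, adjusted p = 0.087), or puromycin, -0.13 ± 0.14 (SE, adjusted p = 0.85). DDIT3 did not pass with any of the compounds, with -0.11 ± 0.19 (SE, adjusted p = 0.76) for ARA-C, 0.18 ± 0.19 (SE, adjusted p = 0.65) for doxorubicin and 0.39 ± 0.20 (SE, adjusted p = 0.45) for puromycin.

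NUPR1, dim in most groups, rose in 5 of the 6 ARA-C comparisons. At 3 days its signal was 249, 308 and 417 with ARA-C 0.17 uM, against 33.9 and 16.2 in vehicle cells (3.76 ± 0.49 SE, adjusted p = 1.1e-07). At 5 days it was 204, 218 and 231, against 20.3, 1.8 and 1.9 (4.10 ± 0.43 SE, adjusted p = 3.1e-11). Of these 5-day vehicle arrays 2 were under 10 and were set to 10, so the size of this change rests on that floor. The signal with ARA-C 0.34 uM was 70.8, 70.0 and 60.9 at 24 hours, 246, 254 and 219 at 3 days and 341, 441 and 356 at 5 days. The vehicle cells of rows G-H had 2.0, 1.6 and 6.8 at 24 hours, 33.8, 22 and 36.2 at 3 days and 131, 127 and 132 at 5 days. All 3 of these vehicle arrays at 24 hours were under 10, so the 24-hour change rests on the floor too. At 24 hours of ARA-C 0.17 uM it went the other way, with 6.7, 4.0 and 4.4 against 37.7, 22.2 and 26.4 in vehicle cells, all treated arrays being under the floor of 10. Array 3 of ARA-C 0.17 uM at 3 days and array 2 of ARA-C 0.34 uM at 24 hours had raised low signals, with 0.221% and 0.941% of signals under 10, and their NUPR1 signals of 417 and 70.0 stand beside those of the other arrays above, and the part of this in the result was not tested.

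STC2, a secreted stress glycoprotein, was higher in 9 comparisons and lower in 2. ARA-C 0.34 uM gave 1129, 1287 and 1239.7 at 24 hours and 1264, 1365 and 1302 at 3 days, against 451, 513 and 416 and 534, 521 and 502 in vehicle cells (1.41 ± 0.14 SE, adjusted p = 6.1e-11 and 1.34 ± 0.14 SE, adjusted p = 4.9e-11). Puromycin 0.18 uM gave 772, 901 and 794 at 24 hours, against 385, 457 and 369 (1.03 ± 0.14 SE, adjusted p = 7.7e-07). No arrays overlapped in these comparisons. The fall of STC2 with doxorubicin 119.76 nM at 5 days, -0.38, was a called rise of 0.55 after quantile normalization, so its direction there is not settled.

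EIF4EBP1, which blocks the cap-binding factor eIF4E, was lower in 10 comparisons and higher in 0. With doxorubicin it was at 4969, 4896 and 5053 and 3482, 4654 and 4022 at 3 days for the lower and the higher dose, against 7282 and 7325 in vehicle cells (-0.55 ± 0.13 SE, adjusted p = 0.0011 and -0.86 ± 0.13 SE, adjusted p = 8.6e-07). Every treated array was below both vehicle arrays. At 5 days of doxorubicin 119.76 nM it was at 1845 and 3029.8, against 6710.4, 8063 and 7412 (-1.64 ± 0.13 SE, adjusted p = 1e-15).

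The C/EBP partners of ATF4 were higher more often than lower. CEBPB, a transcription factor of stress and differentiation, was higher in 8 comparisons and lower in 0, with the largest rise at ARA-C 0.34 uM and 3 days (0.51 ± 0.11 SE, adjusted p = 0.00051). CEBPG, the C/EBP protein that pairs with ATF4, was higher in 4 and lower in 3. Of its rises 3 were with puromycin, by 0.45 and 0.52 at 24 hours for 0.09 and 0.18 uM and by 0.74 ± 0.17 (SE, adjusted p = 0.0048) for 0.09 uM at 5 days. The 24-hour rise with 0.09 uM lost its call without any 1 of its treated or vehicle arrays, at 0.42 to 0.49 and an adjusted p of up to 0.13. The 5-day rise was 0.55 without treated replicate 2, which left 1 array. VLDLR, a lipoprotein receptor, was dim, with a mean signal of 39.3, and passed the test once, with doxorubicin 59.88 nM at 5 days (-1.38 ± 0.45 SE, adjusted p = 0.014).

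**Figure D4:**
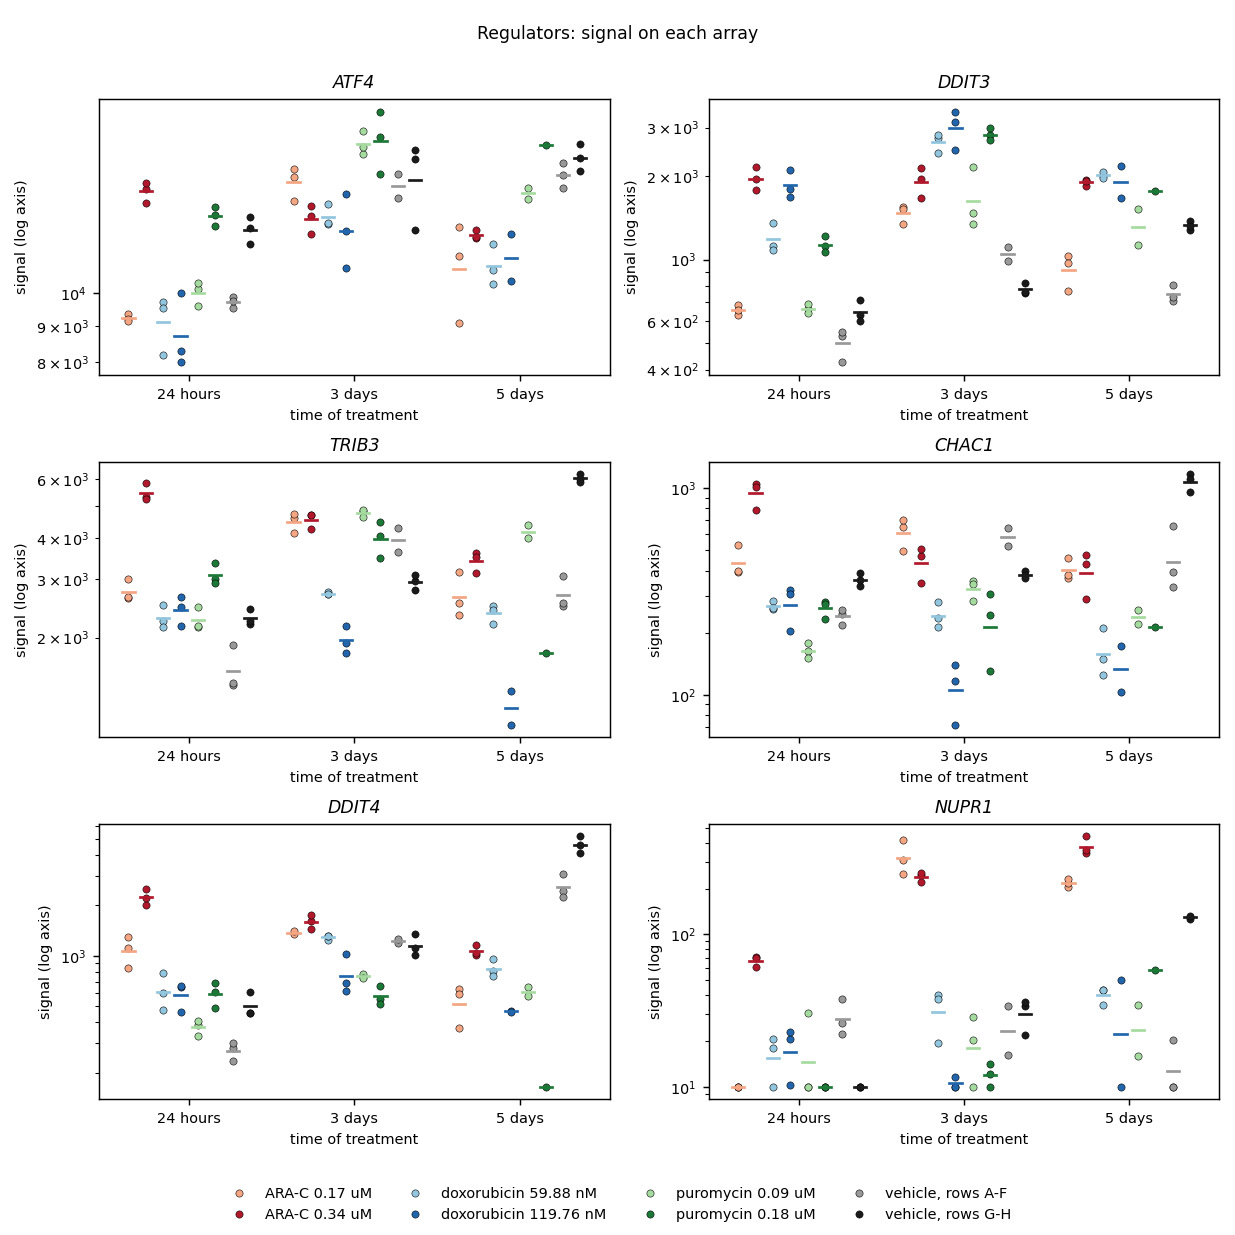
Signal (log axis) of 6 regulators on each array, by time, with the treated groups to the left of the vehicle arrays of rows A-F (grey) and rows G-H (black) and a line at the mean of the log2 signals. Signals under 10 are drawn at 10, and puromycin 0.09 uM at 5 days shows 2 arrays. DDIT4 in vehicle cells climbs with time, reaching 5177, 4120.0 and 4563 in rows G-H at 5 days, above all treated arrays.

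Most of the 12 synthesis enzymes were lower at 5 days of ARA-C and doxorubicin, with MTHFD2 called in none of these 4 groups. With ARA-C 9 of 12 were lower at 0.17 uM and 9 of 12 at 0.34 uM. With doxorubicin 9 of 12 were lower at 59.88 nM and 11 of 12 at 119.76 nM, and in all 4 groups 0 were higher. The shares of all probe sets that were lower are the 33.3%, 18.8%, 22.6% and 34.6% given above for these groups. After quantile normalization 6 were lower and 2 higher with ARA-C 0.17 uM, and 9 lower and 0 higher with 0.34 uM. Doxorubicin then gave 8 lower and 0 higher with 59.88 nM, and 9 lower and 1 higher with 119.76 nM. The medians of the 12 were -1.02, -1.08, -1.33 and -3.14 in this order, beside -0.64, -0.16, -0.32 and -0.78 for all probe sets with a mean signal of 100 or more. At 24 hours the same enzymes split, with 5 higher and 0 lower for ARA-C 0.34 uM but 3 higher and 4 lower for doxorubicin 119.76 nM.

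ASNS rose in 2 comparisons, both at 24 hours of a higher dose. Under ARA-C 0.34 uM it was at 7434, 7318 and 8104, against 4812, 4548 and 3949 in vehicle cells (0.78 ± 0.18 SE, adjusted p = 0.0033). With puromycin 0.18 uM it was at 2783, 4589 and 5101, against 2636, 2028 and 2468 (0.77 ± 0.18 SE, adjusted p = 0.0047). The treated arrays were above the vehicle arrays of their own plate part in both, though array 1 of puromycin was close to the highest of these. The vehicle arrays of rows G-H, at 4812, 4548 and 3949, lay within the range of the puromycin arrays. The puromycin call was lost without treated replicate 3, at 0.60 and adjusted p = 0.061. ASNS fell in 6 comparisons. At 3 days of doxorubicin 119.76 nM it was at 1871, 2328 and 1844, against 8561 and 7339 (-1.98 ± 0.21 SE, adjusted p = 1.1e-10), and at 5 days at 565 and 806, against 6838, 9070.5 and 7617 (-3.53 ± 0.21 SE, adjusted p = 3.9e-20). Puromycin 0.09 uM left it at 8032 and 8283 at 5 days, with a change of 0.07 ± 0.21 and a 95% interval of -0.35 to 0.48.

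PCK2 was called in 16 comparisons, as many as DDIT3, with 7 rises and 9 falls. At 24 hours ARA-C 0.17 uM gave 727, 685 and 612 and doxorubicin 119.76 nM 656, 556 and 525, against 207, 259 and 224 in vehicle cells (1.56 ± 0.19 SE, adjusted p = 5.9e-08 and 1.33 ± 0.19 SE, adjusted p = 7.6e-07). At 5 days the same 2 groups were at 751, 404 and 454 and 87.8 and 180.5, against 1479, 2235 and 1335 (-1.67 ± 0.19 SE, adjusted p = 2.1e-10 and -3.70 ± 0.21 SE, adjusted p = 1.4e-20). Treated arrays were above all vehicle arrays at 24 hours and below all of them at 5 days. At 3 days ARA-C 0.17 uM still gave 1418, 1147 and 1522, against 829.4 and 853 (0.69 ± 0.21 SE, adjusted p = 0.028, call lost without vehicle replicate 1 or 2 or treated replicate 1 or 3, at 0.60 to 0.71 and an adjusted p of up to 0.19), while doxorubicin 119.76 nM was already lower at 186, 158 and 209 (-2.20 ± 0.21 SE, adjusted p = 1.2e-11).

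CTH, which releases cysteine from cystathionine, rose at 24 hours in all 6 treated groups, by 0.74 to 1.34 on the log2 scale. With puromycin 0.09 uM it was at 1223, 1145 and 1278 and with doxorubicin 59.88 nM at 1287, 1359 and 1426. Both were compared with rows A-F, and neither was above all vehicle arrays of rows G-H (1314, 1336 and 1282). The CTH signal under ARA-C 0.34 uM was 3407, 3174 and 3358, against those arrays of rows G-H (1.34 ± 0.19 SE, adjusted p = 1.2e-06). CBS, the enzyme before it in the same pathway, was lower in 10 comparisons and higher in 0. At 5 days of doxorubicin CBS was at 507, 362 and 511 with 59.88 nM and 253 and 184 with 119.76 nM, against 3366, 3078 and 3217 (-2.82 ± 0.23 SE, adjusted p = 2.1e-14 and -3.90 ± 0.26 SE, adjusted p = 5e-18). No treated array reached the vehicle arrays.

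ALDH18A1 and PYCR1, which act in turn in proline synthesis, were each lower in 10 comparisons and higher in 0. With ARA-C 0.17 uM at 24 hours ALDH18A1 was at 982, 984 and 779.5, against 2366, 2059 and 2139.5 (-1.26 ± 0.32 SE, adjusted p = 0.0044). With ARA-C 0.34 uM at 3 days it was at 993, 806 and 672, against 2506, 2487 and 2472 (-1.61 ± 0.32 SE, adjusted p = 0.00015). Both groups of treated arrays were below all their vehicle arrays. PYCR1 fell by 1.70 on the log2 scale with ARA-C 0.34 uM at 5 days.

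The serine and folate enzymes differed among themselves. PSAT1 and PHGDH, early steps of serine synthesis, were lower in 8 comparisons each and higher in 0 and 1. PSAT1 changed by -1.70 ± 0.41 (SE, adjusted p = 0.00065) and PHGDH by -1.32 ± 0.11 (SE, adjusted p = 1.1e-13) with doxorubicin 59.88 nM at 5 days. PSPH, the last step of serine synthesis, rose with ARA-C 0.34 uM at 24 hours (1.09 ± 0.17 SE, adjusted p = 7.6e-06) and was lower in 3 comparisons, of which those of doxorubicin 119.76 nM and puromycin 0.18 uM at 5 days were not called after quantile normalization. SHMT2, which turns serine into glycine in mitochondria, was higher in 3 and lower in 6, with changes of -0.75 to 0.55. MTHFD2, the mitochondrial folate enzyme beside it, was higher in 3 and lower in 0, with changes of at most 0.36. ASS1 was lower in 7 and higher in 0. With ARA-C 0.34 uM at 5 days it was at 291, 309 and 305, against 4899, 5384 and 4851 in vehicle cells of rows G-H (-4.06 ± 0.31 SE, adjusted p = 1.8e-15). The vehicle cells of rows A-F had 757, 818 and 849.6 at that time, below those of rows G-H.

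**Figure D5:**
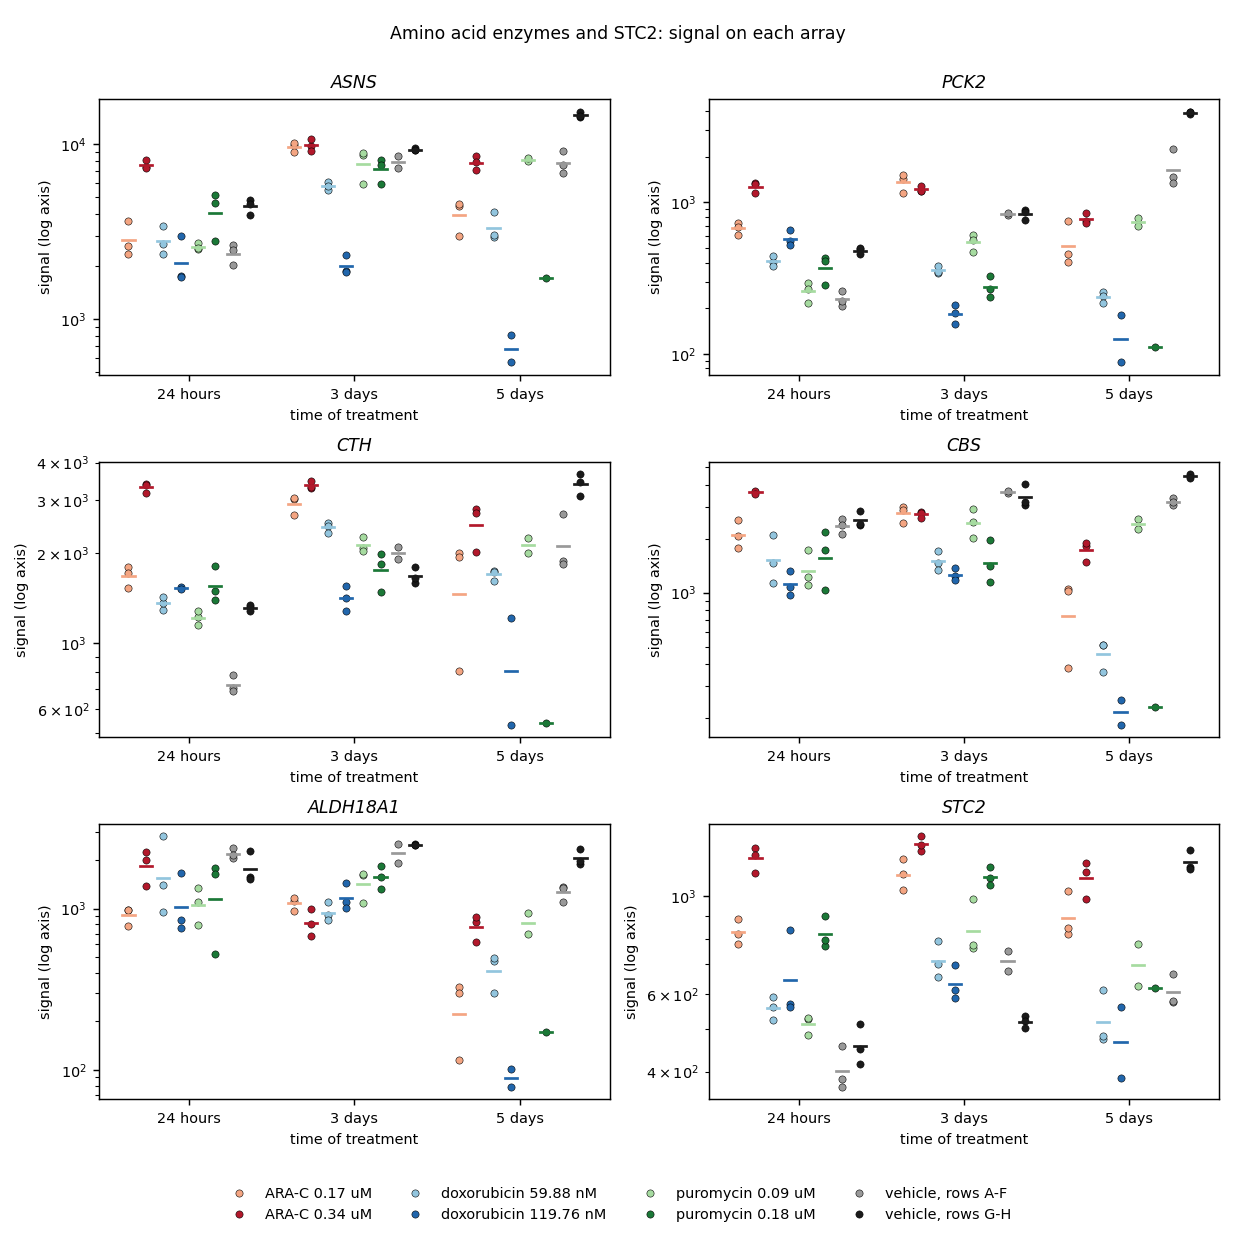
Signal (log axis) of 5 amino acid enzymes and STC2 on each array, by time, with treated groups to the left of the vehicle arrays of rows A-F (grey) and rows G-H (black) and a line at the mean of the log2 signals. Puromycin 0.09 uM at 5 days shows 2 arrays. PCK2 and CTH lie above the vehicle of the same plate part at 24 hours in most treated groups, and CBS lies below all vehicle arrays in both doses of doxorubicin at 5 days.

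The 5 transporters did not move as a group. SLC7A5 and SLC3A2, the light and heavy chain of the leucine exchanger LAT1, fell with doxorubicin at 24 hours. In some later puromycin groups they were higher than in vehicle cells of rows A-F. At 24 hours of doxorubicin 119.76 nM they changed by -0.53 ± 0.11 (SE, adjusted p = 0.00058) and -0.61 ± 0.17 (SE, adjusted p = 0.0079). At 3 days of puromycin 0.18 uM they changed by 0.58 ± 0.13 (SE, adjusted p = 0.00089) and 0.64 ± 0.19 (SE, adjusted p = 0.018), and at 5 days of 0.09 uM by 0.43 and 0.73, of which SLC7A5 was not called after quantile normalization. Those 5-day signals were 5353 and 5938 for SLC7A5 and 1760 and 2043 for SLC3A2. They overlapped the vehicle arrays of rows G-H, at 5859, 6065 and 6186 and at 1945, 2000 and 2079. The 3-day call of SLC3A2 was lost without treated replicate 3, at 0.59 and adjusted p = 0.084. Its 5-day change was 0.63 without treated replicate 2, which left 1 array. SLC1A4, a neutral amino acid carrier, was higher in 6 comparisons, by up to 0.84 ± 0.11 with ARA-C 0.34 uM at 3 days (log2, SE, adjusted p = 7.8e-08), and lower in 3. Of these, its change with ARA-C 0.17 uM at 5 days was -0.33 but a called 0.34 after quantile normalization. SLC7A1, which carries arginine and lysine, was lower in 7 and higher in 0, with -1.48 ± 0.14 (SE, adjusted p = 5.1e-12) at 3 days of doxorubicin 119.76 nM. SLC1A5, the glutamine carrier, was lower in 3, and its -0.56 with doxorubicin 119.76 nM at 5 days was a called 0.37 after quantile normalization.

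The cytosolic tRNA synthetases, which load each tRNA with its amino acid, were mostly lower with doxorubicin at 3 and 5 days. At 24 hours of 59.88 nM 1 of the 12 was higher and 0 lower, beside 1.66% and 3.83% of all probe sets. With 119.76 nM 1 was higher and 3 lower at 24 hours, beside 5.05% and 9.98%. After quantile normalization the 24-hour counts were 2 higher and 0 lower, and 2 higher and 5 lower. Of the 12 genes of this group, 7 were lower and 0 higher at 3 days of 59.88 nM, and 10 lower and 0 higher at 5 days of 119.76 nM. Their medians were -0.31 and -1.13, beside -0.15 and -0.78 for all probe sets with a mean signal of 100 or more. These counts stand beside 9.75% and 34.6% of all probe sets lower, and after quantile normalization they were 7 and 9 lower. At 5 days of ARA-C 8 were lower and 1 higher at 0.17 uM, beside 33.3% and 8.36% of all probe sets, with 3 lower and 4 higher after quantile normalization. At 0.34 uM 7 were lower and 2 higher, beside 18.8% and 11.8%, with the counts at 7 and 2 after quantile normalization. With puromycin 0.09 uM 0 were called at 3 or 5 days. Among 8 other cytosolic synthetases and complex subunits on the array, 1 was lower at 3 days of doxorubicin 59.88 nM and 5 at 5 days of 119.76 nM, when the arginine enzyme RARS1 changed by -2.80.

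Single synthetases differed in how often they moved. YARS1 (tyrosine) and SARS1 (serine) were each lower in 8 comparisons, and SARS1 higher in 1. EPRS1 (glutamate and proline), IARS1 (isoleucine) and MARS1 (methionine) were lower in 7 each, with EPRS1 at -1.23 ± 0.15 (SE, adjusted p = 4.1e-09) for doxorubicin 119.76 nM at 3 days. MARS1 was also higher in 1. AARS1 (alanine) was lower in 7 and higher in 1. Its rise was with ARA-C 0.34 uM at 24 hours (0.50 ± 0.13 SE, adjusted p = 0.0058) and its fall with the same dose at 5 days was -1.20 ± 0.13 (SE, adjusted p = 3.6e-11). XPOT, which exports tRNA from the nucleus, was lower in 8, with -0.92 ± 0.16 (SE, adjusted p = 8.8e-06) at 3 days of doxorubicin 119.76 nM.

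CARS1, which loads cysteine, went against the group, higher in 8 comparisons and lower in 1. With puromycin 0.18 uM at 24 hours it changed by 0.70 ± 0.13 (SE, adjusted p = 0.00033) and with ARA-C 0.17 uM at 24 hours by 0.66 ± 0.13 (SE, adjusted p = 4e-04). Its fall with puromycin 0.18 uM at 5 days, -0.62, was not called after quantile normalization. WARS1 (tryptophan) rose at all 3 times of ARA-C 0.34 uM, by 0.65 ± 0.12, 0.66 ± 0.12 and 0.34 ± 0.12 (log2, SE, adjusted p = 0.00015, 3.7e-05 and 0.027), and was lower in 4. The 5-day rise was -0.13 when the mean of its probe sets was used. GARS1 (glycine) was higher in 1 and lower in 4, and TARS1 (threonine) higher in 1 and lower in 3. NARS1 (asparagine) hardly moved, with changes of -0.22 to 0.28 and 2 rises.

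At the EC50 the compounds were compared with each other directly, on arrays of plate rows A-F. ARA-C and doxorubicin differed in 7 of the 40 genes at 24 hours, beside 8.39% of all probe sets, in 23 at 3 days, beside 12.1%, and in 18 at 5 days, beside 25.6%. At 3 days 22 were higher with ARA-C than with doxorubicin and 1 lower. Those higher included NUPR1 (3.36 ± 0.43 SE, adjusted p = 8.5e-08), PCK2 (1.93 ± 0.19 SE, adjusted p = 5.5e-11), CHAC1 (1.34 ± 0.25 SE, adjusted p = 8.4e-05) and ASNS (0.74 ± 0.18 SE, adjusted p = 0.004). DDIT3 was the gene that was lower, with an ARA-C minus doxorubicin difference of -0.86 ± 0.14 (SE, adjusted p = 6.5e-06). Its signal was 1549, 1527 and 1347 with ARA-C and 2749, 2826 and 2429 with doxorubicin.

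ARA-C and puromycin differed in 10 genes at 24 hours, beside 9.14% of all probe sets, in 12 at 3 days, beside 21.4%, and in 27 at 5 days, beside 37.2%. At 24 hours DDIT4, CHAC1 and PCK2 were higher with ARA-C, by 1.51 ± 0.18, 1.41 ± 0.25 and 1.38 ± 0.19 (log2, SE, adjusted p = 2.8e-08, 4.4e-05 and 5e-07). For DDIT3 at that time the difference was -0.01 ± 0.14, with a 95% interval of -0.28 to 0.26. Doxorubicin and puromycin differed in 7 genes at 24 hours, beside 5.54%, in 19 at 3 days, beside 18.5%, and in 25 at 5 days, beside 25.5%. The counts of these pairs depended on the scaling. ARA-C minus doxorubicin gave 6 genes higher and 1 lower at 24 hours and 12 higher and 6 lower at 5 days, and after quantile normalization 14 and 1 at 24 hours and 21 and 1 at 5 days. After quantile normalization the 5-day counts were 9 higher and 9 lower for ARA-C minus puromycin, in place of 3 and 24, and 3 and 16 for doxorubicin minus puromycin, in place of 1 and 24. Of the 5-day genes 24 were lower with doxorubicin, among them CBS (-2.42 ± 0.26 SE, adjusted p = 1.9e-10) and PCK2 (-1.65 ± 0.21 SE, adjusted p = 1.6e-08), and DDIT3 was the gene that was higher (0.62 ± 0.15 SE, adjusted p = 0.0013).

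The higher dose of doxorubicin differed from the lower in 1 of the 40 genes at 24 hours, beside 1.45% of all probe sets, in 10 at 3 days, beside 2.91%, and in 28 at 5 days, beside 32%. Of the 5-day genes 1 was higher and 27 lower at the higher dose, with 2 higher and 18 lower after quantile normalization. DDIT3 was the gene at 24 hours (0.65 ± 0.14 SE, adjusted p = 0.0057). At 3 days ASNS was at 1871, 2328 and 1844 with 119.76 nM, against 5433, 6088 and 5750.1 with 59.88 nM (-1.52 ± 0.18 SE, adjusted p = 2.1e-07). The higher dose of puromycin differed from the lower in 2 genes at 24 hours, beside 0.0405%, which were DDIT3 (0.77 ± 0.14 SE, adjusted p = 0.014) and STC2 (0.68 ± 0.14 SE, adjusted p = 0.035). At 3 days it differed in 4, beside 0.887%, with DDIT3 again higher (0.80 ± 0.14 SE, adjusted p = 0.00031). The 2 doses of ARA-C lay in different plate parts and were not set against each other.

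Genes around the program, on lists outside the 40, moved in their own ways. Their counts are given for single comparisons and under the deposited scaling only. Of 13 other ATF4 and stress response genes on the array 7 rose and 0 fell at 3 days of ARA-C 0.34 uM, beside 11.2% and 7.77% of all probe sets. GDF15, a stress cytokine, rose by 3.06 at 3 days of ARA-C 0.34 uM, where CDKN1A, a cell cycle inhibitor that p53 induces, rose by 1.67. PPP1R15A, which brings a phosphatase to eIF2 and so ends the response, rose by 3.04 at 5 days of doxorubicin 119.76 nM and by 1.76 at 3 days of ARA-C 0.34 uM. With puromycin 0.18 uM at 24 hours CDKN1A fell, with -0.84. Of 11 eIF2 kinases and subunits of eIF2 and its exchange factor 10 were lower at 5 days of ARA-C 0.17 uM, beside 33.3% of all probe sets. The median of the 11 was -0.93, beside -0.64 for all probe sets with a mean signal of 100 or more. The counts of the 40 genes in this group changed with the scaling, and this count was not taken after quantile normalization. The group also had the raised ACTB ratios given above, and their part in this count was not tested. EIF2S3, a subunit of eIF2, fell by 1.52 on the log2 scale at 24 hours of ARA-C 0.17 uM. Of 10 ER stress genes outside the ATF4 branch 0 rose and 4 fell at 3 days of doxorubicin 119.76 nM, beside 6.91% and 8.67% of all probe sets. There the stress factor XBP1 changed by -1.07. Of 10 mitochondrial tRNA synthetases 6 were lower and 0 higher at 3 days of doxorubicin 59.88 nM, beside 9.75% and 6.27% of all probe sets, with TARS2 at -1.63 and IARS2 at -0.78.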

How the data were processed

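The deposited values were MAS5 signal intensities on a linear scale, which the authors computed from Affymetrix HT arrays and scaled to about the same mean on each array. The MAS5 version was not given in the sources used here. Of 22930 probe sets, 715 control probe sets were left out and 22215 were tested, of which 19230 carried 1 gene symbol, 125 several and 2860 none. Gene names came from the platform annotation, and no gene was read from a probe set with several symbols. The 40 genes had 58 probe sets in all. Signals under 10 were set to 10 and log2 was taken.

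Linear models were fitted with limma 3.58.1 in R 4.3.3 (lmFit, contrasts.fit and eBayes with trend) on 67 arrays, with 1 mean for each of 24 groups of treatment, time and plate part, so that all groups shared 1 estimate of the spread with 43 residual degrees of freedom. Within each comparison the Benjamini-Hochberg adjustment ran over all probe sets tested. Printed intervals are 95% intervals. The labels call the replicates biological but do not say whether they were separate cultures. The p-values therefore measure the spread between these arrays, and the number of arrays limits the precision. Replicate numbers did not pair arrays across groups, so no block was used. Treatment groups and plate rows were taken from the labels.

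The 40 genes and the other gene lists were chosen with earlier results of these data known. ATF4, ASNS, TRIB3, CHAC1, DDIT3 and DDIT4 are named in each comparison where a value is of use, beside the 4 largest called rises and falls, and all 40 genes are named at least once. Of the other lists, genes with the largest called changes are named. Alternatives were quantile normalization, a floor of 32, a cap of 16000, other vehicle sets, plate part or replicate number as a block, dim probe sets left out, the blood-like array kept, the mean of a gene's probe sets, and each array left out in turn. The fit was tested on simulated data. Promoters were searched and figures drawn with Python 3.11.15, pandas 2.3.3 and matplotlib 3.10.9.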

Additional observations from a re-analysis of the deposited data

Results flagged for a closer look

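The effect of a compound at its EC50 differed between 5 days and 24 hours, by limma's test of the difference, in 10 of the 18 combinations of 6 genes and 3 compounds. With ARA-C the 5-day change minus the 24-hour change was -1.25 ± 0.26 (SE, adjusted p = 0.00032) for ASNS, -0.36 ± 0.13 (SE, adjusted p = 0.048) for ATF4, -0.81 ± 0.16 (SE, adjusted p = 9.7e-05) for TRIB3, -1.01 ± 0.35 (SE, adjusted p = 0.031) for CHAC1 and -4.30 ± 0.26 (SE, adjusted p = 1.6e-18) for DDIT4, all on the log2 scale. With doxorubicin it was -1.47 ± 0.26 (SE, adjusted p = 3.2e-05) for ASNS, -0.71 ± 0.16 (SE, adjusted p = 0.00061) for TRIB3, -1.65 ± 0.35 (SE, adjusted p = 0.00038) for CHAC1 and -2.78 ± 0.26 (SE, adjusted p = 5.6e-12) for DDIT4. With puromycin it was -2.54 ± 0.27 (SE, adjusted p = 2.3e-08) for DDIT4. These differences also hold the change of the vehicle cells, so they need not be falls in treated cells. ASNS in vehicle cells of rows A-F went from 2636, 2028 and 2468 to 6838, 9070.5 and 7617. It went from 3651, 2613 and 2341 to 4450, 2971 and 4526 with ARA-C 0.17 uM. With doxorubicin 59.88 nM it went from 2357, 3385 and 2697 to 2934, 4108 and 3029. The ACTB 3′ to 5′ ratio was also higher at 5 days than at 24 hours, in vehicle cells of rows A-F too (1.92 to 2.08 at 5 days and 0.51 to 0.83 at 24 hours), and its part in these differences was not tested.

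The ALDH18A1 signal of 1916 on 1 of the 5 vehicle arrays at 3 days stood apart from the other 4 by Dixon's test. About 1 in 20 groups would be set apart in this way by chance.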

How the results depend on the processing

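With quantile normalization direction and call were kept by 161 named gene values, against 12 that lost the call and 1 that turned. With the blood-like array kept they were kept by 69, against 75 that lost the call and 2 that turned, and 35 of the 46 counts moved by over 1.5 times. The cause of each move below was not tested. Counts are of the 40 genes, higher or lower against vehicle unless a vehicle comparison is named, and those in parentheses are the counts given in the report. With quantile normalization the counts that moved by over 1.5 times were 12 higher (5) in ARA-C 0.17 uM day 3, 15 higher (3) and 11 lower (23) in ARA-C 0.17 uM day 5, 2 lower (1) in ARA-C 0.34 uM day 3, 3 higher (1) in doxorubicin 119.76 nM day 3, 6 higher (2) in doxorubicin 119.76 nM day 5, 13 higher (8) and 2 lower (7) in puromycin 0.09 uM 24 h, 2 higher (1) and 2 lower (1) in puromycin 0.09 uM day 3, 4 higher (0) in puromycin 0.18 uM day 5, 11 higher (6) in vehicle 24 h rows G-H against rows A-F, 1 lower (0) in vehicle day 5 rows G-H against rows A-F and 1 lower (0) in vehicle day 5 against 24 h rows G-H. With a floor of 32 the count that moved was 0 lower (1) in puromycin 0.18 uM 24 h. With a cap of 16000 they were 2 higher (1) in doxorubicin 119.76 nM day 3 and 10 higher (6) in vehicle 24 h rows G-H against rows A-F. Against all vehicle arrays of the same time they were 6 higher (13) in ARA-C 0.17 uM 24 h, 10 higher (5) and 2 lower (1) in ARA-C 0.17 uM day 3, 2 higher (7) and 5 lower (2) in doxorubicin 59.88 nM 24 h, 1 higher (4) in doxorubicin 59.88 nM day 5, 2 higher (1) in doxorubicin 119.76 nM day 3, 1 higher (2) in doxorubicin 119.76 nM day 5, 0 higher (8) in puromycin 0.09 uM 24 h, 2 higher (1) and 0 lower (1) in puromycin 0.09 uM day 3, 1 higher (5) and 6 lower (3) in puromycin 0.09 uM day 5, 6 higher (14) in puromycin 0.18 uM 24 h and 1 higher (0) in puromycin 0.18 uM day 5. With plate part as a block they were 2 lower (4) in ARA-C 0.17 uM 24 h, 17 higher (5) in ARA-C 0.17 uM day 3, 4 lower (1) in ARA-C 0.34 uM day 3, 4 higher (7) in doxorubicin 59.88 nM 24 h, 5 higher (3) in doxorubicin 59.88 nM day 3, 2 higher (1) in doxorubicin 119.76 nM day 3, 1 higher (8) and 2 lower (7) in puromycin 0.09 uM 24 h, 5 higher (1) and 0 lower (1) in puromycin 0.09 uM day 3, 3 higher (5) in puromycin 0.09 uM day 5, 0 lower (1) in puromycin 0.18 uM 24 h, 4 lower (9) in puromycin 0.18 uM day 3 and 1 higher (0) in puromycin 0.18 uM day 5. With the replicate number as a block they were 0 lower (1) in ARA-C 0.17 uM day 3 and 0 lower (1) in puromycin 0.09 uM day 3. With dim probe sets left out they were 2 lower (1) in ARA-C 0.17 uM day 3, 4 lower (2) in doxorubicin 59.88 nM 24 h, 2 higher (1) in doxorubicin 119.76 nM day 3, 3 lower (1) in puromycin 0.09 uM day 3 and 11 higher (6) in vehicle 24 h rows G-H against rows A-F. With the blood-like array kept they were 4 higher (13) and 0 lower (4) in ARA-C 0.17 uM 24 h, 1 higher (5) and 0 lower (1) in ARA-C 0.17 uM day 3, 1 higher (3) and 11 lower (23) in ARA-C 0.17 uM day 5, 8 higher (16) in ARA-C 0.34 uM 24 h, 3 higher (12) in ARA-C 0.34 uM day 3, 1 higher (4) and 9 lower (23) in ARA-C 0.34 uM day 5, 2 higher (7) and 0 lower (2) in doxorubicin 59.88 nM 24 h, 0 higher (3) and 3 lower (17) in doxorubicin 59.88 nM day 3, 2 higher (4) and 13 lower (22) in doxorubicin 59.88 nM day 5, 4 higher (9) and 1 lower (10) in doxorubicin 119.76 nM 24 h, 0 higher (1) and 6 lower (21) in doxorubicin 119.76 nM day 3, 1 higher (2) in doxorubicin 119.76 nM day 5, 0 higher (8) and 0 lower (7) in puromycin 0.09 uM 24 h, 0 higher (1) and 0 lower (1) in puromycin 0.09 uM day 3, 3 higher (5) and 25 lower (3) in puromycin 0.09 uM day 5, 3 higher (14) and 0 lower (1) in puromycin 0.18 uM 24 h, 0 higher (6) and 4 lower (9) in puromycin 0.18 uM day 3, 1 higher (6) in vehicle 24 h rows G-H against rows A-F, 9 higher (22) in vehicle day 5 rows G-H against rows A-F, 6 higher (23) in vehicle day 5 against 24 h rows A-F and 9 higher (27) in vehicle day 5 against 24 h rows G-H. Replicate numbers did not pair arrays: the deviations of 35 same-numbered pairs correlated between -0.328 and 0.186, with a median of -0.02, and the replicate block left 4 gene calls weaker. With the mean of all probe sets of a gene no count moved by over 1.5 times. Signs turned for DDIT3 in ARA-C minus puromycin EC50 day 5 (0.198 with quantile normalization, -0.52 otherwise), NUPR1 in doxorubicin 59.88 nM day 5 (-0.0216 with all vehicle arrays of the same time, 1.66 otherwise), TRIB3 in doxorubicin 59.88 nM day 3 (0.006 with plate part as a block, -0.54 otherwise), DDIT3 in puromycin 0.09 uM day 5 (-0.768 with the blood-like array kept, 0.81 otherwise), TRIB3 in puromycin 0.09 uM day 5 (-1.78 with the blood-like array kept, 0.64 otherwise) and WARS1 in ARA-C 0.34 uM day 5 (-0.132 with the mean of its probe sets, 0.34 otherwise).

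Leaving out 1 array at a time, with a group left at 1 array assumed to vary like the others, gave 10 to 12 higher and 1 to 4 lower in ARA-C 0.17 uM 24 h, 1 to 5 higher and 0 to 1 lower in ARA-C 0.17 uM day 3, 3 to 5 higher and 20 to 23 lower in ARA-C 0.17 uM day 5, 14 to 17 higher and 0 lower in ARA-C 0.34 uM 24 h, 9 to 12 higher and 1 to 2 lower in ARA-C 0.34 uM day 3, 2 to 4 higher and 20 to 23 lower in ARA-C 0.34 uM day 5, 8 to 10 higher and 5 to 11 lower in doxorubicin 119.76 nM 24 h, 1 higher and 17 to 21 lower in doxorubicin 119.76 nM day 3, 1 to 2 higher and 29 to 32 lower in doxorubicin 119.76 nM day 5, 5 to 9 higher and 0 to 7 lower in doxorubicin 59.88 nM 24 h, 1 to 3 higher and 12 to 17 lower in doxorubicin 59.88 nM day 3, 3 to 4 higher and 21 lower in doxorubicin 59.88 nM day 5, 5 to 9 higher and 1 to 8 lower in puromycin 0.09 uM 24 h, 0 to 1 higher and 0 lower in puromycin 0.09 uM day 3, 1 to 4 higher and 2 to 3 lower in puromycin 0.09 uM day 5, 8 to 13 higher and 0 to 3 lower in puromycin 0.18 uM 24 h, 2 to 6 higher and 5 to 9 lower in puromycin 0.18 uM day 3, 0 higher and 30 lower in puromycin 0.18 uM day 5, 1 to 4 higher and 0 lower in vehicle 24 h rows G-H against rows A-F, 0 higher and 0 lower in vehicle day 3 rows G-H against rows A-F, 20 to 22 higher and 3 to 4 lower in vehicle day 5 against 24 h rows A-F, 25 to 28 higher and 0 lower in vehicle day 5 against 24 h rows G-H and 18 to 22 higher and 0 lower in vehicle day 5 rows G-H against rows A-F. The arrays whose removal moved a count by over 1.5 times were vehicle 24 h replicate 1 (1 lower in ARA-C 0.17 uM 24 h, 1 lower in doxorubicin 59.88 nM 24 h, 6 lower in doxorubicin 119.76 nM 24 h, 5 higher in puromycin 0.09 uM 24 h, 1 lower in puromycin 0.09 uM 24 h, 8 higher in puromycin 0.18 uM 24 h, 0 lower in puromycin 0.18 uM 24 h, 2 higher in vehicle 24 h rows G-H against rows A-F), vehicle 24 h replicate 2 (1 lower in doxorubicin 59.88 nM 24 h), vehicle 24 h replicate 3 (2 lower in ARA-C 0.17 uM 24 h, 0 lower in doxorubicin 59.88 nM 24 h, 0 lower in puromycin 0.18 uM 24 h, 3 higher in vehicle 24 h rows G-H against rows A-F), vehicle 24 h replicate 4 (1 higher in vehicle 24 h rows G-H against rows A-F), vehicle day 3 replicate 1 (3 higher in ARA-C 0.17 uM day 3, 0 lower in ARA-C 0.17 uM day 3, 0 higher in puromycin 0.09 uM day 3, 0 lower in puromycin 0.09 uM day 3, 5 lower in puromycin 0.18 uM day 3), vehicle day 3 replicate 2 (1 higher in ARA-C 0.17 uM day 3, 0 lower in ARA-C 0.17 uM day 3, 1 higher in doxorubicin 59.88 nM day 3, 0 lower in puromycin 0.09 uM day 3, 2 higher in puromycin 0.18 uM day 3), vehicle day 3 replicate 6 (2 lower in ARA-C 0.34 uM day 3), vehicle day 5 replicate 1 (1 higher in doxorubicin 119.76 nM day 5), vehicle day 5 replicate 3 (1 higher in doxorubicin 119.76 nM day 5), ARA-C 0.17 uM 24 h replicate 2 (2 lower in ARA-C 0.17 uM 24 h), ARA-C 0.17 uM 24 h replicate 3 (2 lower in ARA-C 0.17 uM 24 h), ARA-C 0.17 uM day 3 replicate 1 (3 higher in ARA-C 0.17 uM day 3), ARA-C 0.17 uM day 3 replicate 2 (0 lower in ARA-C 0.17 uM day 3), ARA-C 0.17 uM day 3 replicate 3 (0 lower in ARA-C 0.17 uM day 3), ARA-C 0.17 uM day 5 replicate 2 (5 higher in ARA-C 0.17 uM day 5), ARA-C 0.34 uM day 3 replicate 3 (2 lower in ARA-C 0.34 uM day 3), ARA-C 0.34 uM day 5 replicate 3 (2 higher in ARA-C 0.34 uM day 5), doxorubicin 59.88 nM 24 h replicate 1 (1 lower in doxorubicin 59.88 nM 24 h), doxorubicin 59.88 nM 24 h replicate 2 (7 lower in doxorubicin 59.88 nM 24 h), doxorubicin 59.88 nM 24 h replicate 3 (0 lower in doxorubicin 59.88 nM 24 h), doxorubicin 119.76 nM 24 h replicate 2 (5 lower in doxorubicin 119.76 nM 24 h), doxorubicin 119.76 nM 24 h replicate 3 (6 lower in doxorubicin 119.76 nM 24 h), puromycin 0.09 uM 24 h replicate 1 (5 higher in puromycin 0.09 uM 24 h, 2 lower in puromycin 0.09 uM 24 h), puromycin 0.09 uM 24 h replicate 2 (5 higher in puromycin 0.09 uM 24 h), puromycin 0.09 uM 24 h replicate 3 (5 higher in puromycin 0.09 uM 24 h, 2 lower in puromycin 0.09 uM 24 h), puromycin 0.09 uM day 3 replicate 1 (0 higher in puromycin 0.09 uM day 3, 0 lower in puromycin 0.09 uM day 3), puromycin 0.09 uM day 3 replicate 2 (0 lower in puromycin 0.09 uM day 3), puromycin 0.09 uM day 3 replicate 3 (0 lower in puromycin 0.09 uM day 3), puromycin 0.09 uM day 5 replicate 2 (1 higher in puromycin 0.09 uM day 5), puromycin 0.18 uM 24 h replicate 1 (0 lower in puromycin 0.18 uM 24 h) and puromycin 0.18 uM 24 h replicate 2 (3 lower in puromycin 0.18 uM 24 h). Of 174 named gene values 38 lost their call without at least 1 array, and these were NUPR1, PSAT1, AARS1, DDIT3 and CHAC1 in ARA-C 0.17 uM 24 h, SLC3A2 and SLC7A5 in doxorubicin 59.88 nM 24 h, PSAT1 and ALDH18A1 in doxorubicin 119.76 nM 24 h, CEBPG, ALDH18A1, ASS1, CBS, PYCR1 and DDIT3 in puromycin 0.09 uM 24 h, NUPR1 and ASNS in puromycin 0.18 uM 24 h, PCK2, DDIT3, XPOT and STC2 in ARA-C 0.17 uM day 3, CEBPB, SLC1A4 and TRIB3 in doxorubicin 59.88 nM day 3, DDIT4 in doxorubicin 119.76 nM day 3, DDIT3 and DDIT4 in puromycin 0.09 uM day 3, SLC3A2 and STC2 in puromycin 0.18 uM day 3, CARS1 in doxorubicin 59.88 nM day 5, CEBPB and ATF4 in doxorubicin 119.76 nM day 5, CHAC1, DDIT3, CEBPG and SLC3A2 in puromycin 0.09 uM day 5 and TARS1 and WARS1 in ARA-C 0.34 uM day 5.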
